A study of Mus musculus with 3 samples.

Results

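The CD28 family receptors measured here are the genes Cd28, Ctla4, Icos, Pdcd1 and Btla, 5 of the 55536 mouse genes quantified. They were chosen by name, and Ensembl identifiers were joined to symbols through the deposited transcript names. The cells were activated regulatory T cells of an adult male mouse (4 months) of the strain Foxp3CreERT2 x Rosa26YFP, in which the names point to an inducible Cre at Foxp3 and a fluorescent reporter at Rosa26. PolyA RNA was sequenced from 3 libraries, labelled as technical replicates 1, 2 and 3 of 1 biological replicate. There was no control group, so no effect of activation or genotype could be measured, and every SD below is the spread between libraries rather than between animals. The labels do not say how the cells were sorted or activated, and add only that the cells originated from a bone marrow haematopoietic cell.

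Receptors of the CD28 family are single-pass membrane proteins of T cells that adjust the signal of the T cell receptor. CD28 and ICOS are costimulatory and recruit phosphoinositide 3-kinase. CTLA-4, PD-1 (the product of Pdcd1) and BTLA are inhibitory. CTLA-4 competes with CD28 for the same ligands, CD80 and CD86, and is carried at high levels by regulatory T cells, which use it to remove those ligands from antigen-presenting cells. PD-1 and BTLA act through cytoplasmic tyrosine motifs that recruit phosphatases.

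The libraries held 6667391 to 10981924 expected counts on genes, and replicate 3 was the shallowest. Protein-coding genes took 89.7% to 92.2% of these counts. The labelled cell type was checked against its markers. The 5 T cell markers (Cd3e, Cd3d, Trac, Trbc2 and Cd4) summed to 6280 to 9121 TPM and the 5 regulatory T cell markers (Foxp3, Il2ra, Ikzf2, Ikzf4 and Tnfrsf18) to 1001 to 1430 TPM, with all 10 above 0 in each library. TPM is the authors' length-corrected level, scaled to a fixed sum in each library. Both sums were lowest in replicate 3, while Foxp3 itself stood at 29.5, 28.7 and 49.8 TPM in replicates 1, 2 and 3. Cd8a and Cd8b1, markers of CD8 T cells, summed to 13.0 to 16.2 TPM.

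All 5 receptors were expressed in all 3 libraries, but they did not keep their proportions. Cd28 and Btla differed little between libraries. Replicate 3 held 2.78 times as much Ctla4 and 0.307 times as much Pdcd1 as the mean of replicates 1 and 2. Icos was 1.32 times that mean in replicate 3.

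Among the costimulatory receptors, Cd28 (mm10 chromosome 1, 60716800 to 60773359, plus strand) is the receptor that gives naive T cells their second signal. It had 201 TPM in replicate 1, 210.2 TPM in replicate 2 and 219 TPM in replicate 3, from 6526, 5682 and 4349 counts. Its mean was 210.2 ± 8.84 TPM (SD, n = 3), and its rank among protein-coding genes lay between 524 and 626. The highest library exceeded the lowest by 1.12 times after TMM scaling, edgeR's correction for composition.

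Icos (chromosome 1, 60977927 to 61000320, plus strand) encodes the inducible costimulator, which appears on T cells after activation. It had 372 TPM in replicate 1, 442 TPM in replicate 2 and 535 TPM in replicate 3, from 6904, 6813 and 6199 counts. Its mean of 449.9 ± 82.1 TPM (SD, n = 3) was the highest of the 5. Icos led the family in replicates 1 and 2 and stood second to Ctla4 in replicate 3.

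Among the inhibitory receptors, Ctla4 (chromosome 1, 60887000 to 60915832, plus strand) had 190.2 TPM in replicate 1, 249.6 TPM in replicate 2 and 612 TPM in replicate 3, from 2984, 3165 and 5816 counts. Replicate 3 was the high one, and it gave the most Ctla4 counts although it was the shallowest library. The mean of 351 ± 228 TPM (SD, n = 3) lies between the 2 lower libraries and the high one and describes none of them, and without replicate 3 it was 219.9 TPM. Ctla4 ranked 661, 513 and 186 among protein-coding genes in replicates 1, 2 and 3.

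Pdcd1 (chromosome 1, 94038305 to 94052553, minus strand) encodes PD-1, an inhibitory receptor induced by T cell receptor signalling. It had 147 TPM in replicate 1, 126 TPM in replicate 2 and 41.9 TPM in replicate 3, from 2305, 1631 and 401 counts. Here replicate 3 was the low one. The mean was 105 ± 55.7 TPM (SD, n = 3), or 137 TPM without replicate 3, and the rank among protein-coding genes was 884, 1113 and 3009.

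Btla (chromosome 16, 45224315 to 45257670, plus strand) encodes an inhibitory receptor that binds HVEM. It had 39.0 TPM in replicate 1, 37.0 TPM in replicate 2 and 35.6 TPM in replicate 3, from 1007, 768 and 554 counts. With 37.2 ± 1.74 TPM (SD, n = 3) it was the lowest of the 5 in every library. B cells also carry BTLA, and the B cell markers Ms4a1, Cd79a, Cd79b, Pax5 and Cd22 were all above 0 in each library. These 5 summed to 100.3, 74.9 and 83.4 TPM in replicates 1, 2 and 3, of which Cd79b made up 60.8, 50.9 and 55.6 TPM. Their part in the Btla level was not tested.

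**Figure D1:**
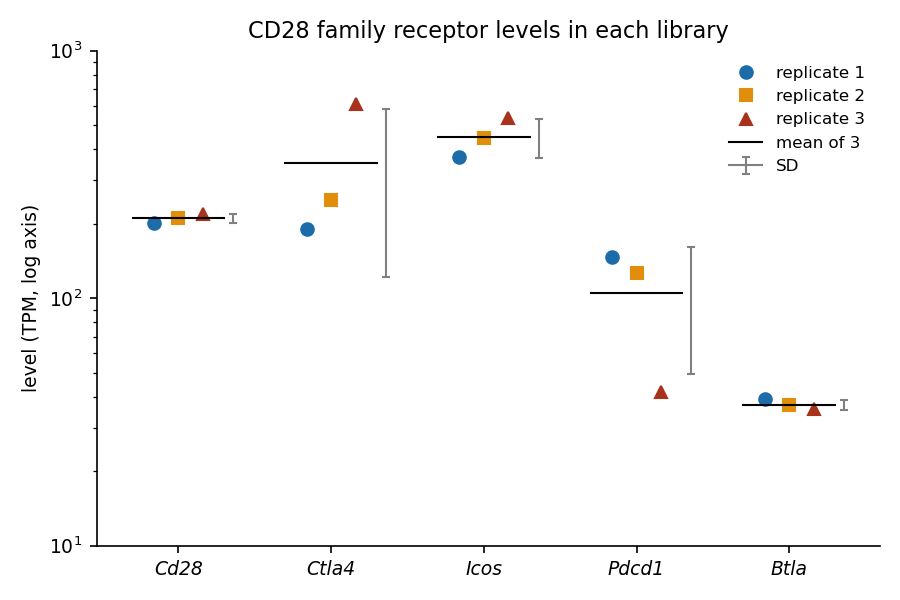
Level of each receptor gene in TPM (log axis) in the 3 libraries, with the mean as a line and the SD as a bar beside it. The 3 libraries of Cd28 and of Btla lie close together, whereas replicate 3 lies above the others for Ctla4 (612 TPM) and below them for Pdcd1 (41.9 TPM).

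The order of the gene levels, noncoding transcripts included, was Icos, Cd28, Ctla4, Pdcd1, Btla in replicate 1. In replicate 2 Ctla4 stood above Cd28, though not in the older gene table scaled per coding base (described with the ratios). In replicate 3 Ctla4 stood above Icos as well. Over the 3 libraries, Icos exceeded Cd28, Cd28 exceeded Pdcd1, and Pdcd1 exceeded Btla in each. The position of Ctla4 by gene level relative to Cd28 and to Icos was not the same in each library, so neither order of gene levels held against the spread.

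The spread was set against sampling noise and against the spread of genes of like count. By a chi-square test on TMM-scaled counts (Benjamini-Hochberg adjusted p under 0.05), all 5 receptors varied between libraries beyond sampling noise, as did 65.3% of the 12997 genes tested, so that count sets no receptor apart. The stricter test was edgeR's likelihood ratio test with a trended dispersion, estimated from all genes over the 3 libraries. It called 2 of the 5 receptors, against 1.65% of the genes tested. Ctla4 had an adjusted p of 0.00219 and Pdcd1 an adjusted p of 0.00500 by edgeR, while Cd28, Icos and Btla each had an adjusted p of 1.00 by the same test.

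The highest over the lowest TMM-scaled library was 3.17 for Ctla4 and 3.54 for Pdcd1. For Icos, Btla and Cd28 this ratio was 1.46, 1.18 and 1.12. Among the 3754 genes whose mean count reached 500 its median was 1.29, and 32 of them (0.852%) passed 3-fold. In that set Pdcd1 stood at percentile 99.5, Ctla4 at 99.3, Icos at 73.3, Btla at 26.0 and Cd28 at 13.9.

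The edgeR calls rest on replicate 3. With replicate 3 left out, Ctla4 differed between the other two by 1.18 times and Pdcd1 by 1.27 times, with an adjusted p of 0.999 each by edgeR. With replicate 1 left out Ctla4 differed by 2.69 times and Pdcd1 by 2.78 times, with edgeR adjusted p-values of 0.182 and 0.170. With replicate 2 left out Ctla4 differed by 3.16 times and Pdcd1 by 3.54 times, with edgeR adjusted p-values of 0.0574 and 0.0273. With 1 common dispersion in place of the trend the folds stayed at 3.17 and 3.54, and the edgeR adjusted p-values were 0.0922 for Ctla4 and 0.132 for Pdcd1. Whether the difference in replicate 3 lies in the cells taken or in the library cannot be told apart in this design.

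**Figure D2:**
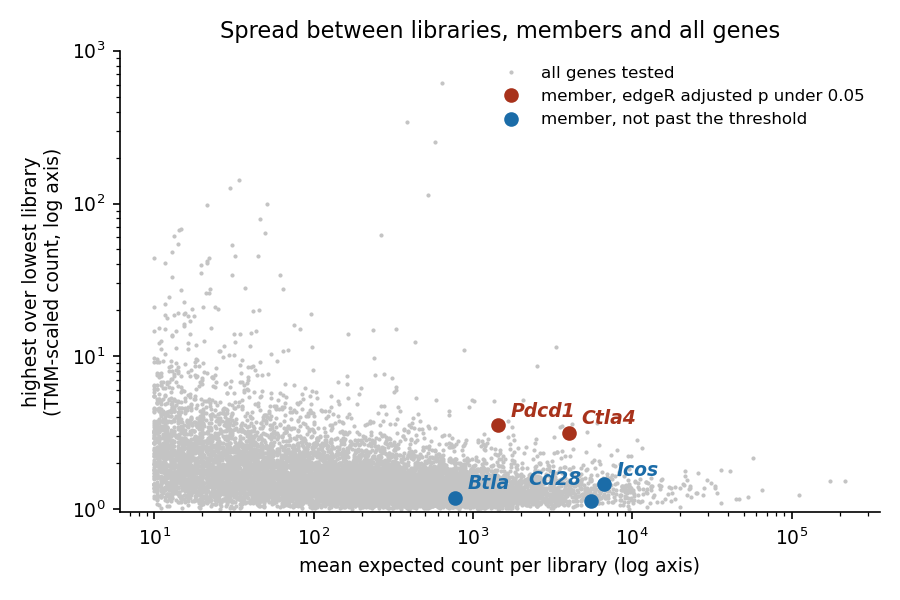
Highest over lowest library (TMM-scaled count, log axis) against mean expected count per library (log axis) for the 12997 genes tested, in grey, with the 5 receptors marked. Ctla4 (3.17) and Pdcd1 (3.54), called by edgeR, lie above most genes of like count, and Cd28, Icos and Btla lie among them. Of the genes tested, 96 with a count of 0 in a library are not drawn.

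Ratios between the receptors were taken within each library, where depth cancels. The Ctla4 to Cd28 ratio sets the inhibitory against the costimulatory receptor for the same ligands. It was 0.945 in replicate 1 (95% counting interval 0.904 to 0.987), 1.19 in replicate 2 (1.14 to 1.24) and 2.79 in replicate 3 (2.69 to 2.91). By gene level, Ctla4 was thus below Cd28 in replicate 1 and above it in replicates 2 and 3. The Cd28 gene level includes a noncoding transcript that retains intron sequence. Among coding transcripts, Ctla4-201 stood above Cd28-201 in each library. Ctla4-201 had 190, 243 and 605 TPM and Cd28-201 had 158, 170 and 175 TPM in replicates 1, 2 and 3. The direction by gene level also depends on the table and its scaling for length. The ratio was 0.997, 1.28 and 2.89 in replicates 1, 2 and 3 of the second transcript table. In the older gene table, scaled per coding base, it was 0.685, 0.823 and 1.73, so replicate 2 also fell below 1. That table holds counts only, and the scaling leaves out untranslated bases. Cd28-201 has 654 coding bases in a length of 4347, and Ctla4-201 has 669 in 1933. The part of this scaling in the lower ratio was not tested. Ctla4 exceeded Cd28 at gene level by all 3 tables in replicate 3 only.

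The Ctla4 to Pdcd1 ratio was 1.29 in replicate 1, 1.98 in replicate 2 and 14.6 in replicate 3, where its counting interval was 13.2 to 16.2. Replicate 3 was 8.93 times the mean of the other two, the widest departure among the 8 ratios computed. Pdcd1 to Cd28 was 0.730, 0.601 and 0.191 in replicates 1, 2 and 3, and Pdcd1 to Btla was 3.77, 3.42 and 1.18. In each of these ratios replicate 3 stood apart from the other two by more than they differed from each other.

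Ratios without Ctla4 or Pdcd1 moved less. Icos to Cd28 was 1.85, 2.10 and 2.44 in replicates 1, 2 and 3 (mean 2.13 ± 0.300, SD, n = 3). Btla to Cd28 was 0.194, 0.176 and 0.162 (mean 0.177 ± 0.0158, SD, n = 3). Among the summed TPM of the 5 genes, Ctla4 made up 20.0%, 23.4% and 42.4%, and Pdcd1 made up 15.5%, 11.9% and 2.90%. Icos kept 39.2%, 41.5% and 37.1% of the sum. These shares are linked, since a high Ctla4 lowers the others.

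**Figure D3:**
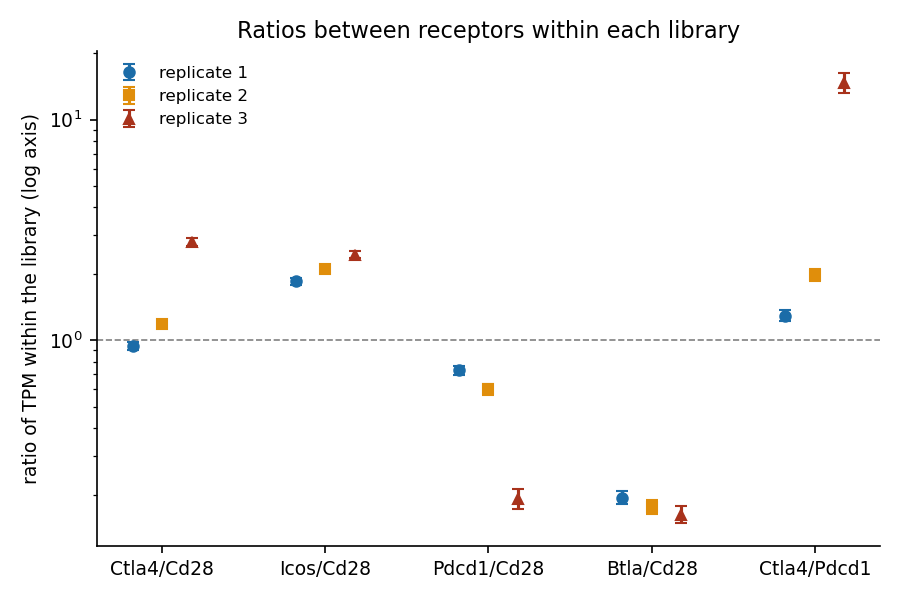
Ratios of TPM within each library (log axis), with 95% counting intervals as bars and a dashed line at equal levels. Replicate 3 stands apart for Ctla4/Pdcd1 (14.6), Ctla4/Cd28 (2.79) and Pdcd1/Cd28 (0.191), while the Btla/Cd28 ratios lie between 0.162 and 0.194.

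The Ctla4 to Pdcd1 ratio was close to these values in the 2 other deposited quantifications of the same libraries. In the second transcript table it was 1.21, 1.92 and 13.8 in replicates 1, 2 and 3. In the older gene table it was 1.34, 2.01 and 14.0. With these tables edgeR also called Ctla4 and Pdcd1.

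Cd28, Ctla4 and Icos form a cluster on chromosome 1 that spans 283.52 kb, with no other protein-coding gene annotated inside it. The annotated span of Ctla4 begins 114 kb after the end of Cd28, and Icos begins 62.1 kb after the end of Ctla4. Although they are neighbours, the highest over the lowest library was 1.12 for Cd28, 3.17 for Ctla4 and 1.46 for Icos. Pdcd1 lies on the same chromosome, 33038 kb beyond Icos and on the other strand. A ribosomal protein pseudogene, Rpl18-ps1 (9.07 TPM), lies within the annotated span of Ctla4, and an unclassified transcript, Gm37039 (4.80 TPM), lies within that of Icos, both on the plus strand. Their levels are small beside 351 and 449.9 TPM.

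The annotation used holds 12 transcripts of these genes, and their shares were compared because alternative forms of these receptors differ in how they sit in the membrane or end inside the cell. The sequences at the points where the forms part are shown because they mark how the forms differ. Those of Icos-201 and Cd28-203 run on without a splice, so unspliced RNA of the same gene would hold them too. In each pair the lower-case bases are the shared exon end and the capitals are what follows it, 5′ to 3′ on the coding strand, from the GENCODE M21 transcripts.
Ctla4-201 (exon 2 to exon 3): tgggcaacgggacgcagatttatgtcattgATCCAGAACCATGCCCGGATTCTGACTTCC
Ctla4-202 (exon 2 to exon 4): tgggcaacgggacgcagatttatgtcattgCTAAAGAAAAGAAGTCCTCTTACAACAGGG
Icos-202 (exon 4 to exon 5): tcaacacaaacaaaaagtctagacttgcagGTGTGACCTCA
Icos-201 (exon 4 read on): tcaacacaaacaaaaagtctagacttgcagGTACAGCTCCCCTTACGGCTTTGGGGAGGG
Cd28-201 (exon 2 to exon 3): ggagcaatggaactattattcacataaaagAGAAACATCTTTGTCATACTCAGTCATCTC
Cd28-203 (exon 2 read on into the intron): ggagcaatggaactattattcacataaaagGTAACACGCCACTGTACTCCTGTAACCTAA
Btla-201 (exon 3 to exon 4): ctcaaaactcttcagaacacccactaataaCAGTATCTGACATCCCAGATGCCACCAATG
Btla-202 (exon 3 to exon 4): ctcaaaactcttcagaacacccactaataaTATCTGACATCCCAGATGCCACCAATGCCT

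Icos had the most even split between coding forms of the 5 genes. Icos-201 made up 40.6% of Icos transcripts in replicate 1, 40.0% in replicate 2 and 38.7% in replicate 3, a mean of 39.8 ± 0.967% (SD, n = 3), and Icos-202 made up the other 60.2 ± 0.967%. In Icos-201 exon 4 reads on for 189 bases (chromosome 1, 60995609 to 60995797) in place of the splice to exon 5. Its reading frame has 223 codons, against 200 in Icos-202, so the predicted proteins end differently. The share barely moved while the gene's level ran between 372 and 535 TPM.

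Icos-201 is 810 bases long and Icos-202 is 3241 bases, and the shares per molecule rest on that difference. By fragments, Icos-201 took 12.1 ± 0.341% (SD, n = 3), from 853, 831 and 726 expected counts in replicates 1, 2 and 3. The second transcript table put its share of transcripts at 39.8%, 39.6% and 39.8%. Both tables take the lengths from the annotation. Whether the Icos-201 fragments come from that form or from unspliced RNA was not tested.

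Ctla4-201, the full-length membrane form, made up 99.9%, 97.3% and 98.8% of Ctla4 transcripts in replicates 1, 2 and 3. Ctla4-202 skips exon 3 (chromosome 1, 60913219 to 60913328, 110 bases), the exon known to encode the transmembrane part, and is the form known as soluble CTLA-4. It had 0, 20.5 and 17.9 expected counts in replicates 1, 2 and 3. Its share of transcripts was 0%, 2.53% and 1.20%, and its share of fragments was 0%, 0.648% and 0.307%. By counting error alone, a count of 0 among the 2984 Ctla4 counts of replicate 1 allows up to 0.101% of fragments. That floor leaves out error in dividing fragments between the forms, so it is not an upper limit on the share. The second table gave 0%, 2.24% and 1.65% of transcripts. The higher Ctla4 level of replicate 3 lay in Ctla4-201, which had 190.0, 242.9 and 605 TPM, against 0, 6.31 and 7.33 TPM of Ctla4-202.

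Cd28-203, a noncoding transcript that retains intron sequence after exon 2, made up 21.3%, 19.3% and 20.3% of Cd28 transcripts in replicates 1, 2 and 3, with 8.90 ± 0.488% of the fragments (SD, n = 3). The coding Cd28-201, with 218 codons, made up 79.7 ± 1.00% (SD, n = 3), or 158, 170 and 175 TPM. Whether these fragments come from a stable transcript or from unspliced RNA was not tested.

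Btla-201 and Btla-202 differ by 3 bases at the start of exon 4 (CAG in the capitals above), giving 306 and 305 codons, and by their 3′ ends. Btla-201 made up 11.5%, 11.8% and 13.0% in the main table and 22.0%, 18.6% and 20.9% in the second. The quantifications differed by more than the libraries did, so the share of Btla-201 is known only to that range. Pdcd1 has a single annotated transcript, Pdcd1-201, with 288 codons in 5 exons.

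**Figure D4:**
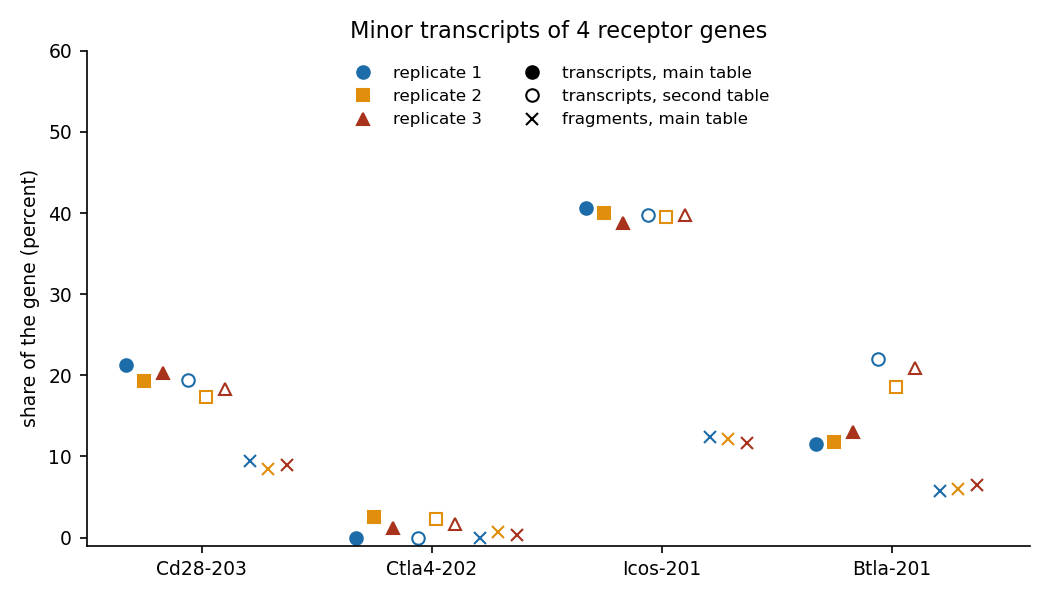
Share of each gene held by its minor transcript (percent), as transcripts in the main table (filled), as transcripts in the second table (open) and as fragments in the main table (crosses). Icos-201 lies near 40% in every library by both tables, Ctla4-202 lies at or below 2.53%, and for Btla-201 the tables differ.

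The promoters of Ctla4 and Pdcd1 are shown because these genes stood apart in opposite directions in replicate 3. The RefSeq table (GRCm38.p6) held promoters for 3 of the 5 genes, Ctla4, Pdcd1 and Btla, from 250 bases before to 50 bases after the RefSeq start. For Ctla4 this window, from 60908775 to 60909074, lies well inside the gene span given above, which begins at 60887000. The distance from Cd28 to Ctla4 was measured to the edge of that span. Capitals mark matches on either strand to the motifs listed after the sequences.
Ctla4 promoter, chr1:60908775-60909074, plus strand: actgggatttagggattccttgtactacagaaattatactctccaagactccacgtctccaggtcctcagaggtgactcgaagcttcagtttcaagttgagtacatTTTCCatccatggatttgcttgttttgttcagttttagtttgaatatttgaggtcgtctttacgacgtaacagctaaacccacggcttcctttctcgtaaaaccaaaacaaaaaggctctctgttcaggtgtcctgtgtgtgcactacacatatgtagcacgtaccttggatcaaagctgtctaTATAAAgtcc
Pdcd1 promoter, chr1:94052504-94052803, minus strand: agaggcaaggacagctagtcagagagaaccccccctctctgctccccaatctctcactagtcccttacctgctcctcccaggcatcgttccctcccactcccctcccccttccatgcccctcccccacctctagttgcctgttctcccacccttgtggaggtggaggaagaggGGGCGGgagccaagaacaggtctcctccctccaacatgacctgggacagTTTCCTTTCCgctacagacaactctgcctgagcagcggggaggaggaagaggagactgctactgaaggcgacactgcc

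The NFAT core, searched as GGAAA, matched once in the Ctla4 promoter and 2 times, side by side, in the Pdcd1 promoter, and 61.3% of the 32851 promoters in the table hold it. The TATA box letters TATAAA matched once in Ctla4 (13.6% of promoters), within the 50 bases after the start rather than before it. The GC box GGGCGG matched once in Pdcd1 (35.7%). Neither the AP-1 motif TGANTCA (7.81%) nor the forkhead motif GTAAACA (3.65%) matched in Ctla4, Pdcd1 or Btla. GC content was 42.0% for Ctla4, at percentile 14.1 of promoters, and 60.7% for Pdcd1, at percentile 72.2. These matches describe letters in the window and were not tied to binding.

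The 3′ untranslated regions of Ctla4 and Icos mRNA are known targets of Roquin proteins, which bind short stem-loops and start decay. The core of the constitutive decay element was searched on the sense strand as TTC, a pyrimidine, a purine, a pyrimidine and GAA. The matches are shown in capitals with the flanking bases.
Ctla4-201, chr1:60915758-60915786, plus strand: actcaatattTTCCATGAAaatgcaacca
Icos-202, chr1:60999479-60999507, plus strand: agaacaaaatTTCTGTGAAataaaatctg

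A match was found in 1 form of Icos only. Icos-202 carries it in a 3′ region of 2606 bases, where 9.60% of regions of like length (within 20%) hold one, and Icos-201, with 106 bases, has none. Ctla4-201 carries its match in 1115 bases (4.92% of like regions), and the 89 bases of Ctla4-202 hold none. No match was found in the coding transcripts Cd28-201, Pdcd1-201, Btla-201 and Btla-202. The stem around each match was not examined.

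The ligands of these receptors were expressed at lower levels than most of the receptors. The 6 ligand genes were all detected (at least 1 TPM in each library), 4 of them varied beyond sampling noise by the chi-square test (65.3% of all genes tested did), and none passed edgeR (1.65% of all genes did). At an unadjusted edgeR p under 0.05 there was 1 (Cd86), against 812 of the 12997 genes tested. For these and the gene lists that follow, counts near those shares set no list apart, and a gene that missed the edgeR threshold is not shown to be level. Their median TPM was 20.8, against 210.2 for the receptors. Their median highest over lowest ratio was 1.60, against 1.44 for all genes tested, which were not matched to them by count.

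Cd80 and Cd86 encode the shared ligands of CD28 and CTLA-4. Cd80 had 3.00, 3.86 and 3.80 TPM and Cd86 had 37.2, 31.7 and 17.0 TPM in replicates 1, 2 and 3. Cd86 was lowest in replicate 3, where Ctla4 was highest, with an edgeR adjusted p of 0.678. Icosl, which encodes the ICOS ligand, had 7.32, 5.75 and 4.35 TPM.

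Cd274 and Pdcd1lg2 encode the PD-1 ligands PD-L1 and PD-L2. Cd274 had 38.1, 40.0 and 25.5 TPM, and Pdcd1lg2 had 18.1, 14.0 and 6.83 TPM, in replicates 1, 2 and 3. Both were lowest in replicate 3, as Pdcd1 was, and neither passed edgeR. Against the mean of replicates 1 and 2, replicate 3 held 0.652 times as much Cd274, 0.426 times as much Pdcd1lg2 and 0.307 times as much Pdcd1. For the 5 T cell markers this value lay between 0.651 and 0.749. Tnfrsf14, which encodes HVEM, had 45.0, 54.7 and 52.1 TPM and did not vary beyond sampling noise. Antigen-presenting cells carry several of these ligands, and the 6 myeloid and dendritic markers (Itgax, Zbtb46, Flt3, Csf1r, Lyz2 and Cd14) summed to 21.1, 6.03 and 21.1 TPM. Of these, Itgax was at 0 in replicates 1 and 2 and Cd14 at 0 in replicate 1, and Lyz2 (17.7, 2.38 and 15.7 TPM) varied by edgeR with an adjusted p of 0.00436. Their part in the ligand levels was not tested.

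The 11 genes examined that carry the costimulatory signal (Lck, Fyn, Pik3r1, Pik3cd, Grb2, Grap2, Vav1, Prkcq, Bcl10, Malt1 and Akt1) were all detected. By the chi-square test 10 varied (65.3% of all genes tested), and none passed edgeR (1.65% of all genes), adjusted or not. The kinase Lck was the highest with 1314, 1428 and 905 TPM in replicates 1, 2 and 3. Pik3r1, the regulatory subunit of phosphoinositide 3-kinase, had 49.2, 62.1 and 95.7 TPM, and its effector kinase Akt1 had 13.6, 16.6 and 26.4 TPM. Both were highest in replicate 3, without passing edgeR. By TMM-scaled counts, which edgeR tests, the highest library exceeded the lowest by 1.31 times for Pik3r1 and 1.70 times for Akt1. Pik3r1 thus spread less by counts than by TPM, and the cause was not tested.

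Of the 4 phosphatase genes that act below the inhibitory receptors, 3 varied by the chi-square test (65.3% of all genes tested) and none passed edgeR (1.65%). Ptpn6, which encodes SHP-1, had 113, 175 and 75.6 TPM in replicates 1, 2 and 3, and was the only one with an unadjusted edgeR p under 0.05 (adjusted p 0.298). Inpp5d, which encodes SHIP-1, had 99.7, 108.7 and 84.4 TPM. Ptpn11, which encodes SHP-2, had 7.52, 8.67 and 8.0 TPM, below Ptpn6 in each library. Ppp2ca, a catalytic subunit of PP2A, had 8.65, 11.3 and 12.8 TPM.

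The 6 genes of CTLA-4 trafficking were all detected, 5 varied by the chi-square test (65.3% of all genes tested), and none passed edgeR (1.65%), adjusted or not. Lrba, whose product spares CTLA-4 from lysosomal decay, had 10.9, 11.0 and 11.0 TPM, and did not vary beyond sampling noise. Def6, whose product takes part in CTLA-4 recycling, had 28.4, 35.7 and 43.2 TPM. Trat1, which encodes the adaptor TRIM that carries CTLA-4 to the surface, had 103, 101 and 139 TPM. The clathrin adaptor gene Ap2m1, for uptake from the surface, had 432, 460.0 and 407 TPM, above Ap1m1 with 114, 135 and 91.1 TPM. Rab11a, for recycling, had 160.0, 182 and 157 TPM.

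The mRNA decay genes Rc3h1 and Rc3h2 (Roquin-1 and Roquin-2) had 10.1, 9.11 and 11.7 TPM, and 16.6, 21.7 and 20.9 TPM. Zc3h12a, which encodes Regnase-1, had 4.64, 3.53 and 5.77 TPM. All 3, and likewise all 4 transcription regulators, varied by the chi-square test (65.3% of all genes tested), and none passed edgeR (1.65%), adjusted or not. Among the transcription regulators, Nfatc1 had 80.1, 85.6 and 58.5 TPM and Nfatc2 had 17.3, 20.5 and 15.0 TPM. Tox, a regulator tied to PD-1 in chronically stimulated T cells, had 116, 122 and 88.7 TPM.

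Over these 34 genes, 29 varied by the chi-square test (65.3% of all genes tested) and none passed edgeR (1.65%). At an unadjusted edgeR p under 0.05 there were 2 (Cd86 and Ptpn6), against 812 of 12997 over all genes. The median highest over lowest ratio was 1.33, against 1.44 for all genes tested and 1.29 for the 3754 genes whose mean count reached 500. Neither median, nor the 65.3%, was matched to these 34 genes by count. The values of Ctla4 and Pdcd1, 3.17 and 3.54, were above those of all 34.

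**Figure D5:**
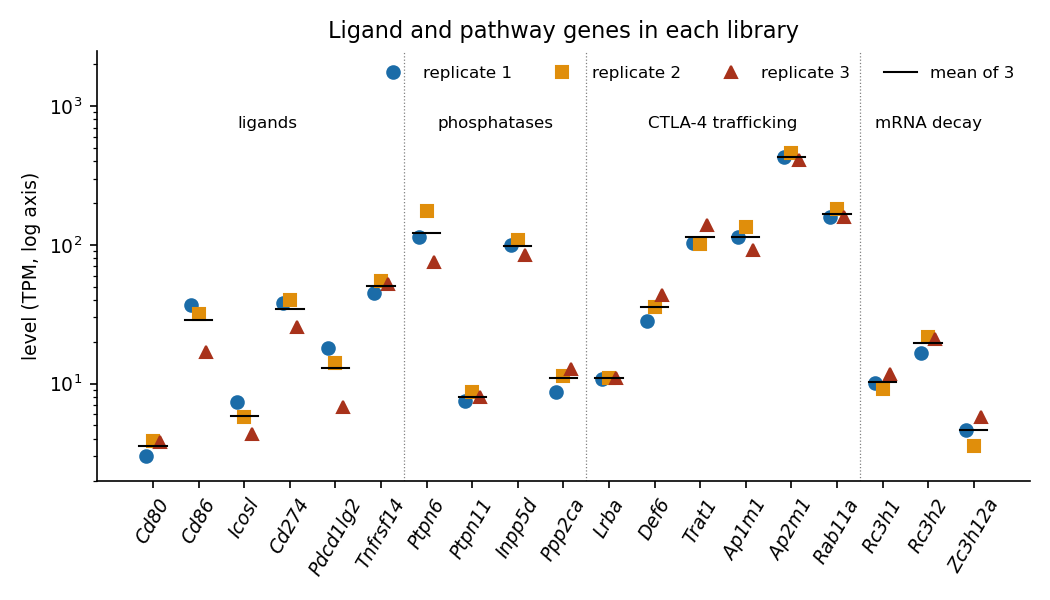
Levels in TPM (log axis) of the ligand genes, the phosphatase genes and the genes of CTLA-4 trafficking and mRNA decay in the 3 libraries, with the mean as a line. Cd86 and Pdcd1lg2 were lowest in replicate 3, and Lrba lay between 10.9 and 11.0 TPM.

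PD-1 is also carried at high levels by follicular helper and follicular regulatory T cells, whose markers were examined beside Pdcd1. The 5 markers Cxcr5, Bcl6, Ascl2, Il21 and Sh2d1a summed to 393, 331 and 244 TPM in replicates 1, 2 and 3. Sh2d1a alone made up 319, 256 and 207 TPM of these sums. Against the mean of replicates 1 and 2, replicate 3 held 0.719 times as much Sh2d1a, 0.514 times as much Cxcr5 and 0.421 times as much Bcl6. For the 5 T cell markers this value lay between 0.651 and 0.749. Cxcr5 had 62.9, 64.4 and 32.7 TPM and Bcl6 had 10.1, 10.5 and 4.33 TPM, both lowest in replicate 3, with edgeR adjusted p-values of 0.677 and 0.756. Ascl2 was at 0 in replicate 3, and Il21 was at 0.35 TPM or less in each library. In bulk RNA fewer cells of a type and less RNA per cell cannot be told apart, and the part of such cells in the Pdcd1 level was not tested. The NK cell markers Ncr1, Klrb1c and Eomes summed to 3.28, 1.20 and 0.94 TPM, and Ncr1 was at 0 in replicates 1 and 2.

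The genes most like each receptor were those with the smallest root mean square difference of centred log2 TPM over the 3 libraries, among 6825 protein-coding genes with a mean of at least 10 TPM and 100 counts. For Ctla4 these were Fkbp5 (14.0, 18.9 and 46.4 TPM), Marc2 and Apoe, and 9 genes lay within 0.1 on the log2 scale. For Pdcd1 they were BC147527 (59.1, 50.3 and 16.9 TPM), Ebi3 (74.7, 63.2 and 21.6 TPM) and H2-T24, and 16 genes lay within 0.1. Cd28 (Ddx10, Uqcrc2 and Cbll1), Btla (Mrpl13, Rnf122 and Rnaseh2c) and Icos (Fntb, Crlf3 and Lrrc28) had 1285, 1063 and 698 genes that close. With 3 libraries, likeness of this kind is a description only.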

How the data were processed

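Each of the 3 libraries was deposited on its own, on mm10. Per the file headers, the authors' main gene and transcript tables (GENCODE M21) hold expected counts, TPM and the percent of each gene's transcripts. A second transcript table that the authors deposited, made with an index, gives estimated (expected) counts and TPM, and an older deposited gene table (M4) holds whole-number counts. No source used here names the programs.

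Levels are deposited TPM. Expected counts were rounded to whole numbers and scaled by TMM. Genes averaging 10 or more counts were tested across libraries by chi-square on 2 degrees of freedom and by edgeR 4.0.16, with Benjamini-Hochberg adjustment over all genes tested. Entries that are not mouse genes (0.087% to 0.166% of counts) were left out. A count of 0 allows up to 3 counts, or 0.273, 0.309 and 0.450 CPM in replicates 1, 2 and 3. Intervals are exact binomial at 95% and, like this floor, cover counting error only, since without molecular identifiers a molecule can be read more than once. Reads of a gene and an overlapping one on the same strand could be split differently by the authors' counting.

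Nothing says that the libraries came from separate cultures or animals, so p-values measure only the spread between these libraries, which may be technical. The genes, gene lists and tests were chosen with earlier results of these data known. Genes named beside the receptors were the pathway and marker lists, of which some genes are not reported here, and, per receptor, the 3 most alike in profile. The scripts were tested on simulated data. R 4.3.3 with DESeq2 1.42.0 (size factors, as an alternative) and Python with scipy 1.17.1 and pandas 2.3.3 were used. Alternatives were other scalings, no filter, the other tables, a common dispersion and leaving out each replicate.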

Additional observations from a re-analysis of the deposited data

How the results depend on the processing

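The scaling (DESeq2 size factors or total count), the older table and dropping the filter on low counts each kept both edgeR calls among the receptors. A common dispersion left 0 of the 5 called by edgeR, with 2 at an unadjusted p under 0.05. Leaving out 1 replicate gave between 0 and 1 receptors and between 83 and 113 genes called by edgeR, and by the chi-square test between 4188 and 6994 genes, 4 receptors each time and between 15 and 27 pathway genes. The lowest of each came without replicate 3, where no receptor had an unadjusted edgeR p under 0.05. Without replicate 1 edgeR also called 0 receptors, with 2 (Ctla4 and Pdcd1) at an unadjusted p under 0.05. The second table gave 322 genes by edgeR.

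Levels depended on the table. The second table gave mean TPM of 109 for Cd28, 196 for Ctla4, 246 for Icos, 59.5 for Pdcd1 and 21.1 for Btla, each over 1.5 times lower than in the main table, and 166 for Cd28 and 32.1 for Btla once rescaled to the protein-coding share of the main table, an alternative chosen after seeing the data. There, the single entry Gm29013 took 11.4% to 22.0% of all TPM. The older table, per coding base, gave 534 for Cd28, 597 for Ctla4, 736 for Icos, 179 for Pdcd1 and 59.7 for Btla. It also gave mean ratios to Cd28 of 1.37 for Icos, 1.08 for Ctla4, 0.349 for Pdcd1 and 0.113 for Btla, against 2.13, 1.64, 0.507 and 0.177 in the main table, and it put Ctla4 below Cd28 in replicate 2. The Btla to Cd28 ratio was 0.194 in the second table. In the second table Cd28-203 stood at 18.4% and Btla-201 at 20.5%. The cause of these differences was not tested, except that the older table was divided by coding bases alone.

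Without 1 replicate the mean TPM ran from 84.1 to 137 for Pdcd1 and from 219.9 to 431 for Ctla4, and the mean Ctla4 to Pdcd1 ratio from 1.64 to 8.29. No paired analysis was possible because there is only 1 group. Depth limits Ctla4-202, which had at most 20.5 counts.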
